A study of Mus musculus with 2 samples.

Results

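The cells described here carried transcripts of the neutrophil's specific granules and few transcripts of its primary granules, the pattern of a myelocyte. They came from mouse cultures of myeloid-derived suppressor cells (MDSCs), immature myeloid cells that restrain T cells, grown with recombinant IL-6 and GM-CSF at 40 ng/mL each. One culture received the vehicle DMSO, and the other received Selinexor at 50 nM, a drug that blocks exportin 1, a carrier that takes proteins and RNA out of the nucleus. On day 4 the cells were tagged with sample barcodes, the live CD11b+ fraction was taken by sorting, and pooled suspensions went into droplet single-cell RNA sequencing, which gave 1 library per group. The cytokines, the day and the sort were common to both groups, and the labels name no strain, sex, age or engineered allele. The study asks what exportin 1 does in the suppressive function of these cells. With a single library per group, no test between Selinexor and DMSO was possible, and every interval below covers counting error only.

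A cell was included when it had at least 200 detected genes, under 10% of UMIs from mitochondrial genes, at least 2000 UMIs, Camp, Ltf and Ngp together at 1% or more of its gene UMIs, and Mpo, Elane, Prtn3 and Ctsg together under 0.5%. A UMI is a molecular tag that counts each captured RNA molecule once. The rule kept 286 DMSO and 273 Selinexor cells, 559 of the 2613 cells that passed the filters with at least 2000 UMIs, and of 3773 deposited cells. They are called specific granule cells here, and the remaining 1143 DMSO and 911 Selinexor cells of that depth are called other cells. The levels of the 7 genes of the rule chose the cells, so the values of those genes, and all differences between specific granule cells and other cells, are descriptions.

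Neutrophil precursors fill their granules in a fixed order. Primary granule proteins such as myeloperoxidase and neutrophil elastase are transcribed in promyelocytes, specific granule proteins such as lactoferrin and cathelicidin in myelocytes and metamyelocytes, and gelatinase granule and receptor genes in later cells. Myelocytes are the last dividing stage of the lineage, and the switch to specific granule genes depends on the transcription factor C/EBP epsilon.

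The genes that define the cells lie on mouse chromosome 9 (mm10, GENCODE M21). Camp, which encodes the cathelicidin antimicrobial peptide, occupies 109847379-109849617 on the minus strand. Ngp, which encodes neutrophilic granule protein, occupies 110419747-110423012 on the plus strand, and Ltf, which encodes the iron-binding protein lactoferrin, occupies 111019271-111042767 on the plus strand. The gaps between neighbours were 570 kb from Camp to Ngp and 596 kb from Ngp to Ltf. Lcn2, which encodes the siderophore-binding protein lipocalin 2 and took no part in the rule, lies on chromosome 2 at 32384633-32388252 on the minus strand. Their RefSeq start-site windows (GRCm38.p6, 250 bases before to 50 bases after the RefSeq start, 5' to 3' on the gene's strand) are shown because these genes carry the identity of the cells. Capitals mark matches to TTGCNNAA, a plain string of the C/EBP consensus, or to GAGGAA, a core bound by PU.1, on either strand. The RefSeq starts need not coincide with the GENCODE gene ends.
Camp (chr9:109849407-109849706, minus strand): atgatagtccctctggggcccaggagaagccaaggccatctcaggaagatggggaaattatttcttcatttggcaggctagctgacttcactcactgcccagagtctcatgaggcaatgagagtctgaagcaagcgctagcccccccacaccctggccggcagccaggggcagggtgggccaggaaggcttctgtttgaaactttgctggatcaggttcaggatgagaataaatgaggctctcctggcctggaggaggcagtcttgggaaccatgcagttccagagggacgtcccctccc
Ngp (chr9:110419558-110419857, plus strand): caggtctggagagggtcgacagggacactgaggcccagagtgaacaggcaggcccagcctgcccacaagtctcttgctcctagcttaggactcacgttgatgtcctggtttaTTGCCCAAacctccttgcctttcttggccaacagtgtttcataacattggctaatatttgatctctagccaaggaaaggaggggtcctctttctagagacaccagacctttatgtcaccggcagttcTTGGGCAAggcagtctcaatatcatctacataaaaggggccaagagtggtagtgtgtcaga
Ltf (chr9:111019042-111019341, plus strand): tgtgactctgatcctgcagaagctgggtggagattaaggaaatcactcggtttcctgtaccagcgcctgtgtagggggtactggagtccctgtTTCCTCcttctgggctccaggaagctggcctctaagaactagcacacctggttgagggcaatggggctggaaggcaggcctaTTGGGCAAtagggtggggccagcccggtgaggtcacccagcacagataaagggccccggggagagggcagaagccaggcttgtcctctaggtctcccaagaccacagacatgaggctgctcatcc
Lcn2 (chr2:32387690-32387989, minus strand): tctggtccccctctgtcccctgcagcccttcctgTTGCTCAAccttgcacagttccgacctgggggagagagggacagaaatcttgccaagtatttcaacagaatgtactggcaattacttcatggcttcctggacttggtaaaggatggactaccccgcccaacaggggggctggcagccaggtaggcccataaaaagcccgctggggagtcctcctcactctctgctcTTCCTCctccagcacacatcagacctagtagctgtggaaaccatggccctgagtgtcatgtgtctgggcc

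Ngp held 2 matches to TTGCNNAA, which began 138 and 11 bases before the start. Ltf held 1 match, beginning 75 bases before the start, and Lcn2 held 1, beginning 216 bases before it. GAGGAA was matched once in Ltf and once in Lcn2, and the Camp window held neither string. Of the 20 genes listed as specific granule genes, 16 had a window in the RefSeq table, and 6 of those 16 (37.5%) held TTGCNNAA, against 10.8% of 27025 windows of the same length. For GAGGAA the shares were 62.5% (10 of 16) and 28.3%. These are string matches, and binding was not measured.

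Specific granule cells made up 20.01% (95% Clopper-Pearson interval 18.0 to 22.2) of the 1429 DMSO cells with at least 2000 UMIs and 23.1% (20.7 to 25.6) of the 1184 Selinexor cells. The intervals overlapped. Over all cells that passed the gene and mitochondrial filters the order turned, with 16.4% (14.7 to 18.2) of 1743 DMSO cells and 13.9% (12.4 to 15.5) of 1967 Selinexor cells. Cells under 2000 UMIs, which the rule leaves out, numbered 314 in the DMSO and 783 in the Selinexor library. The primary granule limit kept out 9 DMSO and 4 Selinexor cells that met the 1% limit.

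**Figure D1:**
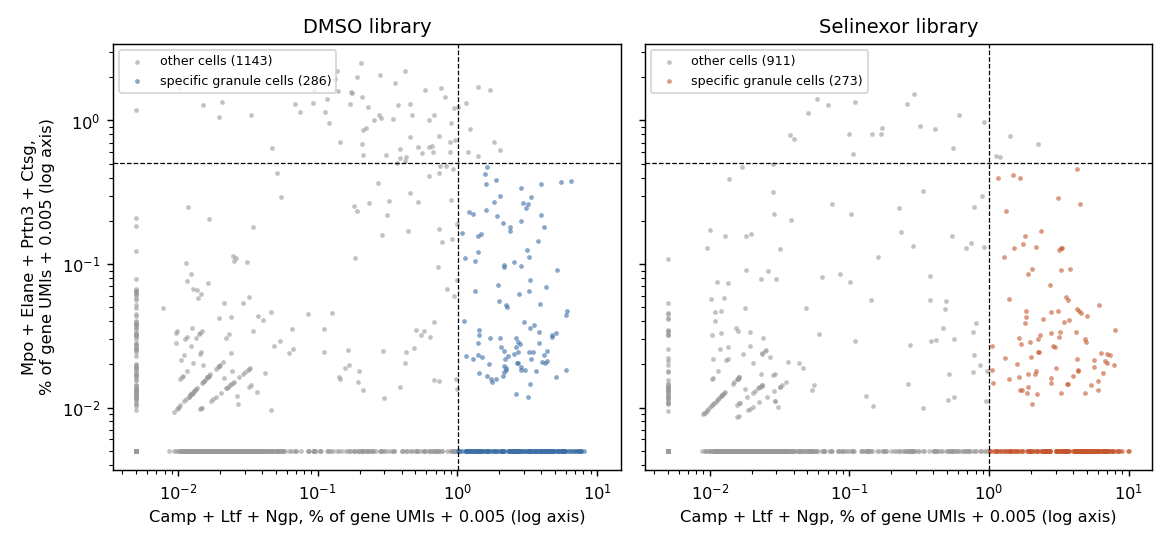
Each point is a cell with at least 2000 UMIs. The x axis is the share of gene UMIs from Camp, Ltf and Ngp and the y axis the share from Mpo, Elane, Prtn3 and Ctsg, both in percent with 0.005 added and on log axes; dashed lines are the limits of the rule, coloured points the 286 DMSO and 273 Selinexor specific granule cells, and grey points the other cells.

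The plot of both shares shows no gap at the lower limit of the rule. Just inside it, the lowest cells had 1.01% (DMSO) and 1.00% (Selinexor) of their UMIs from Camp, Ltf and Ngp, and just outside it the highest had 0.990% and 0.984%. Between 1% and 1.2% lay 15 DMSO and 13 Selinexor cells, and between 0.8% and 1% lay 19 and 11 cells. The median share among the chosen cells was 2.77% in DMSO and 3.51% in Selinexor, and the highest was 8.07% and 10.1%. No primary granule UMI was found in 178 of 286 DMSO and 180 of 273 Selinexor cells.

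Specific granule cells were shallower than the other cells. They held a median of 7162.5 UMIs and 1706 genes in DMSO and 6200 UMIs and 1612 genes in Selinexor, where other cells held medians of 10008 and 11174 UMIs. In total they contributed 2218356 DMSO and 1888581 Selinexor UMIs. Their median ribosomal protein share was 9.48% and 8.59%, against 16.3% and 16.5% in other cells, and their median mitochondrial share was 2.46% and 3.03%. No barcode was shared by the libraries, and each specific granule cell had its own library's sample tag as its most abundant tag. Both may follow from a split of pooled cells by tag, so they are no check of the grouping. The other library's tag reached 10% of tag UMIs in 58 DMSO and 39 Selinexor specific granule cells (20.3% and 14.3%), against 12.2% and 4.28% of other cells. The closing section gives gene counts, shares and some ratios without those cells, which do not show their part in every result.

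The label was checked against 9 markers of the stage: Camp, Ltf, Ngp, Lcn2, Chil3, Cd177, Cebpe, Mmp8 and Itgb2l. Their summed level was 50702 CPM (UMIs scaled to the summed gene UMIs of the group) in DMSO and 58678 CPM in Selinexor specific granule cells, and 5327 and 5328 CPM in the other cells, with none of the 9 at 0. Camp, Ltf and Ngp chose the cells and hold 66516 of the 112475 DMSO UMIs in that sum, so the gap was largely fixed by the rule. The 6 markers outside the rule summed to 20718 and 23231 CPM, against 4426 and 4632 CPM in other cells. Mmp8, a collagenase of the specific granule, went against the label. It stood at 564 CPM in DMSO specific granule cells and 953 CPM in DMSO other cells, and at 1118 and 1198 CPM with Selinexor. Of the markers of other cells, the 7 macrophage markers (C1qa, C1qb, C1qc, Apoe, Mrc1, Pf4, Adgre1) summed to 26.6 and 36.5 CPM, against 330 and 310 CPM in other cells, with C1qb and C1qc at 0 in the Selinexor specific granule cells. Promyelocyte markers summed to 762 and 530 CPM, against 1428 and 548 CPM, but 4 of the 6 are the genes that the rule limits, and the remaining Ms4a3 and Prss57 summed to 273 and 204 CPM, against 241 and 109 CPM. Late neutrophil markers summed to 528 and 566 CPM, against 571 and 234 CPM. Monocyte markers summed to 1364 and 1891 CPM, against 1252 and 2623 CPM, and Ly6c2 alone held 1302 and 1829 CPM of the sum in specific granule cells. B cell, eosinophil, basophil and mast cell, erythroid, megakaryocyte, and T and NK cell markers each summed to 31 UMIs or fewer in either group of specific granule cells.

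Specific granule genes outside the rule differed in how they stood against other cells. Lcn2 was found in all 286 DMSO and all 273 Selinexor specific granule cells, with a median of 1.01% and 0.98% of a cell's UMIs. Its level was 10197 CPM against 1766 CPM in other cells with DMSO, and 9136 against 978 CPM with Selinexor. Cd177, a neutrophil surface protein that presents proteinase 3 in human cells, had a UMI in 91.6% and 95.6% of specific granule cells and in 26.7% and 19.1% of other cells. Chil3, a chitinase-like lectin, stood at 8584 and 11717 CPM in specific granule cells and at 1553 and 2379 CPM in other cells. The gap was narrower for Chil3 against the other cells past the primary granule limit of the rule, which had 4852 and 7119 CPM. Those cells had 1771 and 1120 CPM of Lcn2, and 107 and 99.1 CPM of Cd177. Lyz2, the myeloid lysozyme, was lower in specific granule cells, with log2 ratios of -0.67 in DMSO and -0.80 in Selinexor.

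Free RNA in droplets can give a UMI in a cell that does not express a gene. Ngp had a UMI in 53.8% of DMSO and 57.9% of Selinexor other cells. When each cell was thinned to 2000 UMIs, these shares were 27.3% and 28.2%, against 99.3% and 100% of specific granule cells, which the rule selected for it. Low granule transcript levels in other cells cannot be told apart from free RNA here. S100a8, a subunit of calprotectin, had a UMI in every specific granule cell, and in 99.9% of DMSO and 100% of Selinexor other cells.

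Among genes with at least 50 UMIs over the groups compared, 7.82% of 9256 were at least 1.5-fold higher in DMSO specific granule cells than in DMSO other cells and 40.8% were at least 1.5-fold lower. With Selinexor, 7.77% of 9232 were higher and 51.7% lower. The median log2 ratio over all genes was -0.43 in DMSO and -0.62 in Selinexor, and TMM scaling moved it to -0.10 and -0.14. Under TMM scaling, 1409 genes were higher and 2214 lower in DMSO (724 and 3775 without it), and 1602 and 2755 with Selinexor (717 and 4774 without it). Ratios against other cells are given without TMM scaling and can be read against those medians. The 10 S100 and Ifitm genes summed to 285423 and 267829 CPM in specific granule cells, against 104250 and 54598 CPM in other cells.

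Leaving out the genes of the rule, genes were ranked by the smaller of their ratios over other cells in DMSO and Selinexor. Chil1 came first by that measure, with log2 ratios of 4.03 and 4.25, although Ceacam10, Olfm4, Itgb2l and Ifitm6 had larger ratios than Chil1 in the Selinexor library. It encodes another chitinase-like protein. Ceacam10, a gene of the CEA adhesion family, followed with 3.88 and 4.91. Itgb2l, a beta-2-like integrin, had 3.76 and 4.46, and Cd177 3.45 and 4.25. Itgb2l stood at 152 and 119 CPM in specific granule cells, against 58.8 and 18.0 CPM in the other cells past the primary granule limit. Ifitm6, of the interferon-induced transmembrane family, had 3.25 and 4.28, and Fcnb, which encodes the lectin ficolin B, 3.05 and 3.11. Olfm4, Ear6, Slc2a3, Syne1, Abca13 and Asprv1 completed the leading 12, with ratios from 2.91 to 4.55. Among the 8 lowest were the chemokine gene Ccl17 (-5.79 and -4.48), the lipase gene Lpl (-4.44 and -5.46), the macrophage elastase gene Mmp12 (-4.36 and -4.39) and the mannose receptor gene Mrc1 (-4.53 and -4.33).

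Gene lists placed the cells among the rest of the culture. Their counts can be read against all measured genes, of which 7.82% were higher and 40.8% lower in DMSO. With Selinexor 7.77% were higher and 51.7% lower. Of 18 measured specific granule genes, 12 were higher and 2 lower in DMSO, and 13 were higher and 1 lower with Selinexor, with list medians of 2.23 and 2.20. Camp, Ltf and Ngp are among them. All 28 ribosome biogenesis genes were lower in both libraries, with medians of -1.71 and -2.09, and of -1.39 and -1.67 under TMM scaling. Of 31 measured nuclear transport genes, 22 in DMSO and 28 in Selinexor were lower and 0 were higher. Their medians were -0.81 and -1.26, without TMM scaling, where those of all genes were -0.43 and -0.62. Of 7 NADPH oxidase genes, which form the superoxide-generating complex of phagocytes, 3 and 4 were higher and 0 and 1 lower. Cybb, its catalytic subunit, had log2 ratios of 1.86 and 0.79. Cebpe had 2.65 and 3.40, on 1063 and 641 UMIs in specific granule cells. Those ratios did not hold against primary granule cells, the other cells past the primary granule limit of the rule. With DMSO, Cebpe stood at 479 CPM in specific granule cells and 476 CPM in 70 primary granule cells. With Selinexor it stood at 339 CPM and, in 22 primary granule cells, at 315 CPM.

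Many specific granule cells carried cycle transcripts. A UMI of Mki67 or Top2a was present in 55.9% of the DMSO group (50.0 to 61.8) and in 56.0% of the Selinexor group (49.9 to 62.0). After thinning to 2000 UMIs per cell the shares were 47.2% (41.3 to 53.2) and 42.5% (36.6 to 48.6), with overlapping intervals. Before thinning, other cells, which were deeper, had 47.3% (44.4 to 50.3) in DMSO and 57.3% (54.0 to 60.5) in Selinexor. Thinned other cells had 29.4% (26.8 to 32.1) and 33.2% (30.1 to 36.3). The primary granule cells among them had higher shares than specific granule cells, with 68.6% (56.4 to 79.1) of 70 DMSO cells. In Selinexor they had 45.5% (24.4 to 67.8) of 22 cells. Of 32 G2M genes, 11 were higher than in other cells in DMSO and 5 in Selinexor, and 0 were lower in either. Of all measured genes, 7.82% and 7.77% were higher. Without cells that carried Mki67 or Top2a the list medians were -0.11 and 0.36. Those cells were left out by their cycle genes, so these medians are partly set by the choice.

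The rule genes, whose levels selected the cells in both libraries, differed in their mix. Ngp made up 68.8% of the UMIs of the 3 rule genes in DMSO and 73.4% with Selinexor, Camp 18.6% and 17.0%, and Ltf 12.6% and 9.57%. Selinexor minus DMSO, on the log2 scale of CPM + 1, was 0.34 for Ngp, 0.12 for Camp and -0.16 for Ltf. Outside the rule, Lcn2 differed by -0.16 (95% exact interval -0.19 to -0.13), Chil3 by 0.45 (0.42 to 0.48) and Cd177 by 0.11 (0.01 to 0.21). These 3 ratios were inside the 1.5-fold limit used below, which other specific granule genes passed.

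**Figure D2:**
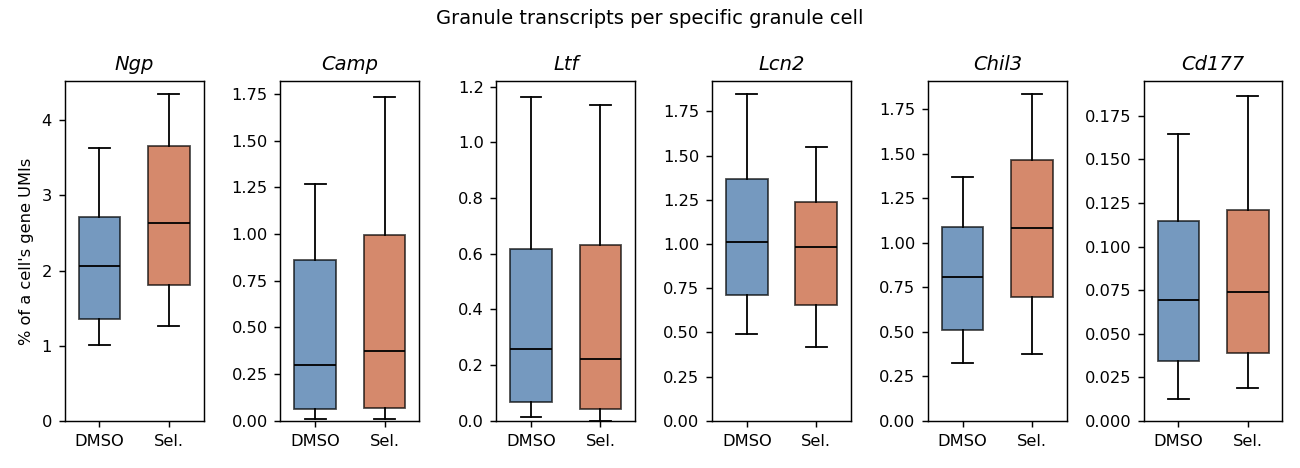
Share of each specific granule cell's gene UMIs, in percent, for Ngp, Camp, Ltf, Lcn2, Chil3 and Cd177 in the DMSO (286 cells) and Selinexor (273 cells) libraries. Boxes span the quartiles, lines are medians and whiskers reach the 10th and the 90th percentile; the Ngp median was 2.06% in DMSO and 2.63% in Selinexor, and the Lcn2 median 1.01% and 0.98%.

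Across all 5693 genes with at least 50 UMIs over both groups of specific granule cells, 6.96% (396) were at least 1.5-fold higher with Selinexor and 9.87% (562) at least 1.5-fold lower, and the median log2 ratio was -0.05. Of 18 measured specific granule genes, 3 were higher and 0 lower, with a median of 0.11. Ratios of Selinexor over DMSO in other cells are given beside some genes below. Those cells are a mixture whose make-up differed. Primary granule cells were 4.90% of DMSO and 1.86% of Selinexor cells with at least 2000 UMIs. Make-up and level cannot be told apart in the ratios of other cells.

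The specific granule genes past the limit were Olfm4, Mmp8 and Lyz2. Mmp8 counted 1252 UMIs in DMSO and 2112 in Selinexor, a log2 ratio of 0.99 (0.89 to 1.09), and had a UMI in 48.6% and 61.2% of cells. Its ratio in other cells was 0.33. Olfm4, which marks a subset of neutrophils, was found in few cells, with 18 DMSO cells holding 269 UMIs and 45 Selinexor cells holding 806. Its log2 ratio was 1.81 (1.61 to 2.02), and the 5 richest cells held 178 of the DMSO and 272 of the Selinexor UMIs. Lyz2 counted 3776 and 5358 UMIs (0.74, 0.68 to 0.80), with 0.87 in other cells, and its ratio was 0.55 without cells that carried Mki67 or Top2a.

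Fewer primary granule genes were higher than lower. Of 11 measured genes, 1 was higher and 5 were lower with Selinexor, with a median of -0.36, and the 4 rule genes of this kind are in the list. Over all genes the shares were 6.96% and 9.87%. The fall was larger in other cells, where 1 of 12 measured genes was higher and 9 were lower, with a median of -1.14. Prtn3, a rule gene that encodes proteinase 3, had a log2 ratio of -0.86, which was -0.48 with a primary granule limit of 0.2% and 0.056 without cells that carried Mki67 or Top2a. Outside the rule, the granule protease gene Prss57 counted 75 and 34 UMIs (-0.87, -1.54 to -0.31, and -0.17 without those cells), Plac8 765 and 384 (-0.76, -0.94 to -0.58), and Srgn, which encodes the granule proteoglycan serglycin, 724 and 370 (-0.73, -0.92 to -0.55). Cebpe, the factor of the granule switch, did not reach the limit, with 1063 and 641 UMIs and a ratio of -0.50 (-0.64 to -0.35).

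Genes of later maturation were mixed. Of 24 measured genes, 3 were higher and 4 lower with Selinexor, with a median of 0.02. Retnlg, a resistin-like gene of late neutrophils, counted 170 UMIs with DMSO, held by 43 cells, and 333 with Selinexor, held by 76 cells. The log2 ratio was 1.19 (0.93 to 1.48), with 0.11 in other cells. Cxcl2, a neutrophil-attracting chemokine gene, counted 326 and 96 UMIs (-1.51, -1.88 to -1.20), Il1b 65 and 27 (-0.99, -1.74 to -0.37), and the cytokine gene Osm 116 and 51 (-0.93, -1.46 to -0.47). Stfa2l1, of the stefin A family of protease inhibitors, counted 2180 and 3248 UMIs (0.81, 0.73 to 0.89). It has near-identical relatives, between which reads may be split.

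Genes of the S100 and Ifitm families were level or lower. Of the 10 S100 and Ifitm genes, 0 were higher and 2 lower, with a median of -0.17. Ifitm6 counted 2738 UMIs in DMSO and 1134 in Selinexor, a log2 ratio of -1.04 (-1.14 to -0.94), and Ifitm3 2144 and 1147 UMIs (-0.67, -0.77 to -0.57). S100a8 and S100a9 had ratios of -0.14 and -0.05 in specific granule cells, and of -0.98 and -1.01 in other cells. Of the 7 NADPH oxidase genes, 0 passed the limit.

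The gene for the target of Selinexor was among the highest over DMSO. Xpo1 (chromosome 11, 23256041-23298249, plus strand, mm10), which encodes exportin 1, counted 91 UMIs (exact Poisson interval 73.3 to 112) in 64 DMSO cells. With Selinexor it counted 242 UMIs (212 to 274) in 142 cells. The levels were 41.0 and 128 CPM and the log2 ratio 1.62 (1.29 to 2.01), where other cells had 70.4 and 205 CPM and a ratio of 1.53. Of 18 measured nuclear transport genes, Xpo1 was the one higher gene, and Ran, the GTPase that sets the direction of transport, the one lower gene, with 570 and 310 UMIs (-0.64, -0.85 to -0.44). The Ran ratio stayed past the limit in 9 of 16 alternatives, and was 0.34 without cells that carried Mki67 or Top2a.

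Ighm (chromosome 12, 113418558-113422730, minus strand), which encodes the immunoglobulin mu constant region, stood highest among the named genes. It counted 37 UMIs (26.1 to 51.0) in 26 DMSO cells. With Selinexor 173 cells held 463 UMIs (422 to 507), and the log2 ratio was 3.80 (3.39 to 4.40). Other cells had 13.3 and 219 CPM, a ratio of 3.94. The B cell markers, Cd79a, Cd79b and Ms4a1 among them, summed to 31 UMIs in DMSO and 7 in Selinexor specific granule cells, with Ms4a1 at 0 with Selinexor.

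**Figure D3:**
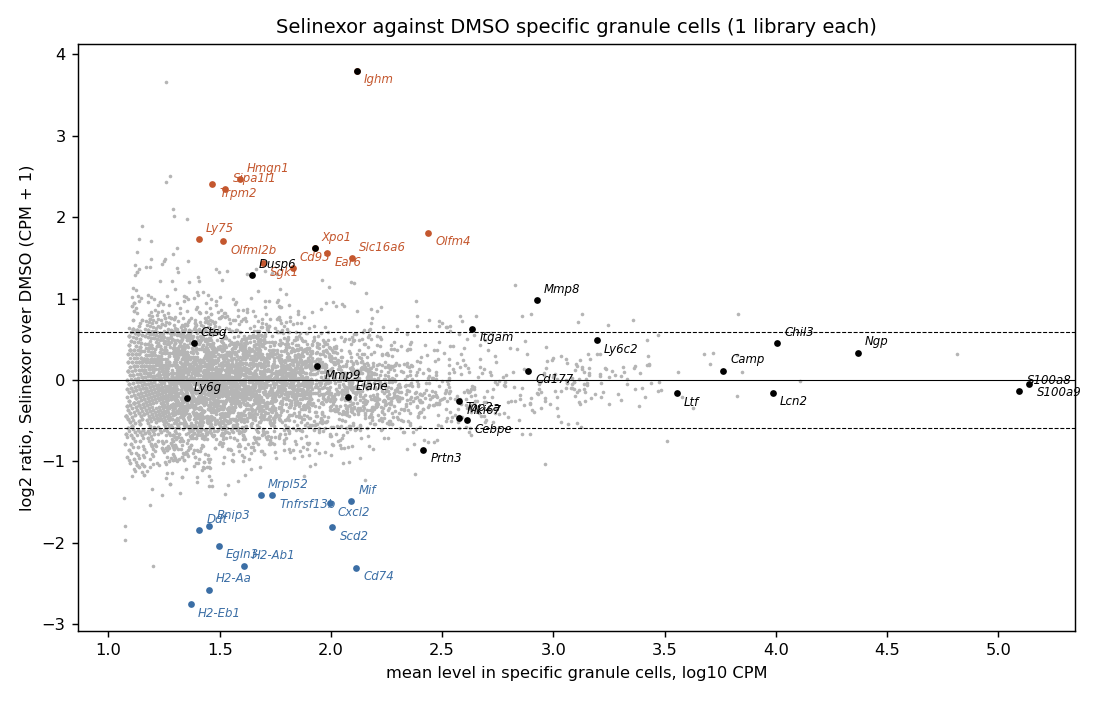
Each grey point is 1 of 5693 genes, with its mean level in specific granule cells (log10 CPM) on the x axis and its log2 ratio of Selinexor over DMSO (CPM + 1) on the y axis. Orange points are the 12 highest and blue points the 12 lowest genes chosen by rule, black points are genes of interest, and dashed lines mark 1.5-fold; Ighm stands at 3.80, Xpo1 at 1.62 and H2-Eb1 at -2.75.

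Some of the other genes high with Selinexor had a like ratio in the other cells. The nucleosome-binding gene Hmgn1 counted 25 and 126 UMIs (2.46, with 2.00 in other cells), Slc16a6, of the monocarboxylate transporter family, 143 and 346 (1.49, with 2.11), the kinase gene Sgk1 58 and 137 (1.44, with 1.78) and Cd93 82 and 184 (1.37, with 1.22). Hmgn1 has processed copies in the genome, so its counts are uncertain. Ear6, a ribonuclease gene of the eosinophil family with close paralogues, counted 107 and 272 UMIs (1.56, with 1.67). Of the eosinophil markers, Prg2 and Epx were at 0, and Siglecf counted 2 UMIs in DMSO and 7 in Selinexor specific granule cells.

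For other genes the ratio in the other cells was smaller or near 0. Trpm2, a calcium channel gene that responds to oxidants, counted 19 and 94 UMIs (2.41, 1.82 to 3.33), with 0.94 in other cells. Sipa1l1, which encodes a GTPase-activating protein, counted 23 and 107 UMIs (2.34, 1.79 to 3.17), with -0.21, and Olfml2b 33 and 96 UMIs (1.71, 1.19 to 2.39), with -0.06. These differences between the cell groups were not tested.

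Among the lowest genes were 4 of MHC class II antigen presentation, and these rested on few cells. Cd74, the invariant chain, counted 480 UMIs in DMSO and 81 in Selinexor, a log2 ratio of -2.31 (-2.69 to -1.99), but 5 DMSO cells held 386 of the 480 UMIs. Without the 5 richest cells of each library the counts were 94 and 63. H2-Aa, H2-Ab1 and H2-Eb1 had ratios of -2.58, -2.29 and -2.75. Transcripts of C1q, Apoe, Fn1 and MHC class II together reached 0.5% of UMIs in 3 DMSO and 0 Selinexor specific granule cells. Without those cells, which were picked partly on the same genes, the ratio was -0.61 for Cd74, -0.14 for H2-Aa, -0.06 for H2-Ab1 and -0.82 for H2-Eb1. Without cells that carried Mki67 or Top2a, Cd74 stood at 0.30 and H2-Eb1 at -0.42, and with a 2% limit on the rule genes Cd74 stood at -0.54. The 7 dendritic cell markers summed to 383 and 73.6 CPM, with Flt3 at 0 in DMSO and Ccr7 at 0 with Selinexor.

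Genes of glycolysis and the hypoxia response included more lower than higher genes with Selinexor. Of 27 measured genes, 10 were lower and 0 higher, with a median of -0.44. Tpi1, triosephosphate isomerase, counted 442 UMIs in DMSO and 160 in Selinexor (-1.22, -1.50 to -0.97). Egln3, an oxygen-sensing prolyl hydroxylase gene, counted 113 and 22 UMIs (-2.04, -2.86 to -1.46), and Bnip3, a mitophagy receptor gene, 99 and 23 (-1.79, -2.60 to -1.21). The cytokine gene Mif counted 404 and 121 UMIs (-1.49, -1.81 to -1.21). In other cells the ratios were -0.69 for Tpi1, -2.37 for Egln3, -1.42 for Bnip3 and -0.62 for Mif. Over the whole list, 10 of 29 measured genes were lower in other cells and 0 higher, with a median of -0.36. Scd2, a stearoyl-CoA desaturase gene outside that list, counted 351 and 84 UMIs (-1.81, -2.19 to -1.48), with -0.42 in other cells.

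So did genes of secretory protein folding. All 35 genes of endoplasmic reticulum import and folding were measured, 13 were lower and 0 higher, and the median was -0.53. In other cells 4 of the 35 were lower and 1 was higher, with a median of -0.20. Sdf2l1, a chaperone cofactor gene, counted 127 and 47 UMIs (-1.17, -1.72 to -0.71), but its ratio was -0.075 in cells thinned to 2000 UMIs. The oligosaccharyltransferase genes Ddost and Rpn1 counted 177 and 82 (-0.86, -1.27 to -0.49) and 219 and 108 (-0.78, -1.13 to -0.45), and the disulfide isomerase gene Pdia6 306 and 156 (-0.73, -1.03 to -0.46). In thinned cells Ddost stood at -0.56 and Rpn1 at -0.46, and with a 2% limit on the rule genes Pdia6 stood at -0.55, all inside the 1.5-fold limit. The ATF4 and integrated stress response list had 6 of 11 measured genes lower and 0 higher, with a median of -0.62. For other cells that list had 8 of 18 measured genes lower and 0 higher, with a median of -0.30. Atf4 itself counted 375 and 194 UMIs (-0.71, -0.98 to -0.46), and the asparagine synthetase gene Asns 76 and 36 (-0.81, -1.46 to -0.26). Without cells that carried Mki67 or Top2a these ratios were -0.30 and -0.062, and Atf4 stood at -0.40 in thinned cells and at -0.50 with the 2% limit.

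**Figure D4:**
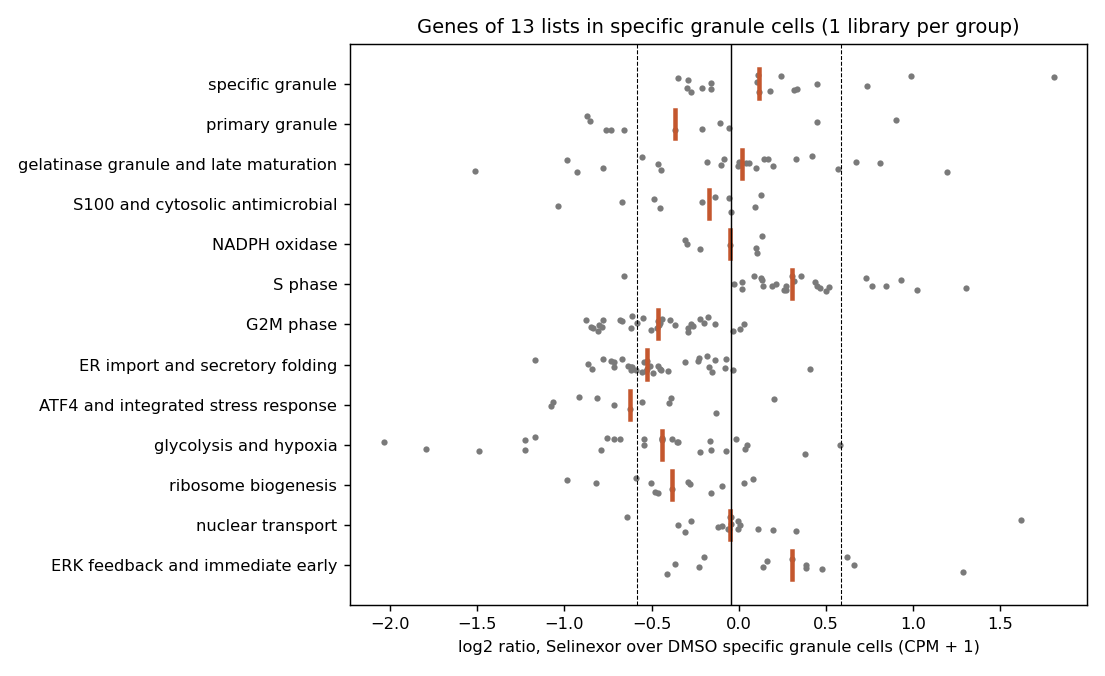
Log2 ratio of Selinexor over DMSO specific granule cells (CPM + 1) for the measured genes of 13 lists. Each dot is a gene, orange bars are list medians, the black line is the median of all 5693 genes at -0.05, and dashed lines mark 1.5-fold; the ATF4, secretory folding, G2M and glycolysis medians stand at -0.62, -0.53, -0.46 and -0.44, and those of the S phase and ERK lists at 0.30.

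Cycle genes split by phase. Of 27 measured S phase genes, 6 were higher with Selinexor and 1 was lower, with a median of 0.30. Pcna, the replication clamp, counted 170 UMIs in DMSO and 277 in Selinexor (0.93, 0.66 to 1.22), and Ccne2, which encodes cyclin E2, 53 and 114 (1.30, 0.85 to 1.84). Of 32 G2M genes, 12 were lower and 0 higher, with a median of -0.46. The mitotic kinase gene Plk1 counted 142 and 65 UMIs (-0.88, -1.34 to -0.46), the ubiquitin-conjugating enzyme gene Ube2c 628 and 296 (-0.85, -1.06 to -0.65) and the centromere histone gene Cenpa 353 and 171 (-0.81, -1.09 to -0.55). The S phase median was -0.11 and the Pcna ratio 0.32 in cells thinned to 2000 UMIs. The G2M median was 0.45 when cells with a UMI of Mki67 or Top2a were left out, where Cenpa stood at -0.46. Because cycle genes chose which cells to leave out, that G2M median is partly set by the choice.

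Because the study concerns the nuclear export of ERK1/2, ERK feedback and immediate early genes were listed. Of 26 genes, 13 were measured, 3 were higher with Selinexor and 0 lower, with a median of 0.30. Dusp6, which encodes a phosphatase of ERK, counted 56 UMIs in DMSO and 119 in Selinexor (1.29, 0.85 to 1.80), and Phlda1 90 and 122 (0.66, 0.27 to 1.08). Dusp5, a nuclear phosphatase of ERK, counted 26 and 35 UMIs (0.62), and its interval of -0.11 to 1.45 included 0. Dusp5 stayed past the limit in 11 of 16 alternatives and Phlda1 in 13, with lowest ratios of 0.063 and 0.38. Of 15 measured genes on the myeloid suppression list, 3 were higher and 2 lower. Arg1 counted 1 and 2 UMIs, and Nos2 12 UMIs in 5 DMSO cells and 0 with Selinexor, which is too few to compare.

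Within each library the specific granule cells were ranked by their share of Camp, Ltf and Ngp and divided into 4 groups of near-equal size, so the trend of those genes is given by construction. Lcn2 went from 8134 CPM in the lowest to 13609 CPM in the highest group with DMSO and from 6650 to 12530 CPM with Selinexor. Cd177 went from 555 to 993 CPM and from 530 to 1093 CPM, and Ly6g, the granulocyte surface marker, from 11.5 to 47.2 and from 7.02 to 35.9 CPM, on 4 to 22 UMIs a group. Ms4a3, a gene of earlier granulocyte precursors, went from 280 to 114 CPM and from 305 to 43.6 CPM. Median UMIs per cell went from 8037 to 6577 with DMSO and from 8168 to 5484 with Selinexor, and their part in these trends was not tested.

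From the lowest to the highest ranked group, Retnlg was lower with DMSO and higher with Selinexor, on few UMIs. It went from 126 to 51.5 CPM with DMSO and from 121 to 349 CPM with Selinexor. Its Selinexor over DMSO log2 ratio was -0.06, 0.36, 2.08 and 2.74 from the lowest to the highest group. All 4 groups together held 170 DMSO and 333 Selinexor UMIs of Retnlg. The groups were cut within each library, where the median share of the rule genes was 2.77% and 3.51%. Over single thinned cells, Spearman's rho of Retnlg with Camp, Ltf and Ngp was -0.11, -0.05 and -0.11 in DMSO. In Selinexor it was 0.09, 0.25 and 0.08. Tpi1 was lower with Selinexor in all 4 groups, with ratios from -1.36 to -1.16, and Xpo1 was higher in all 4, with ratios from 1.06 to 2.55. In cells with a UMI of Mki67 or Top2a the Xpo1 ratio was 1.29, and in cells without one it was 2.57.

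**Figure D5:**
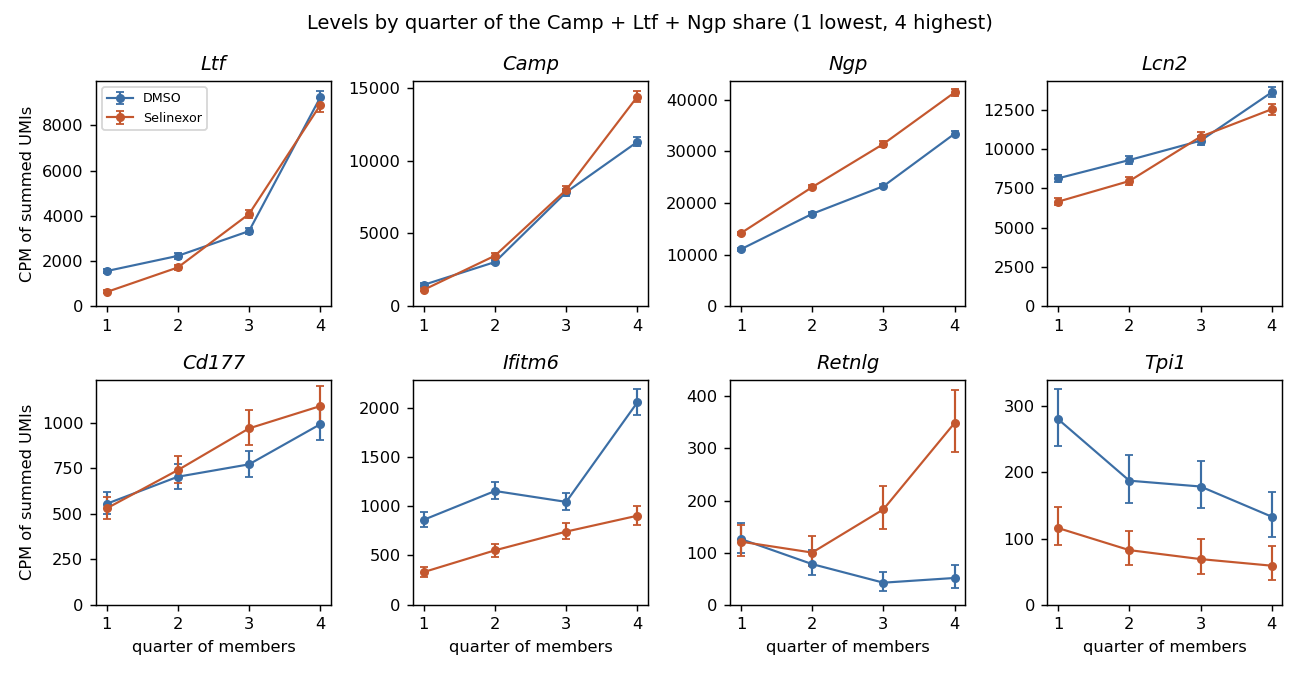
Level (CPM of summed UMIs, y axis) of 8 genes in 4 groups of specific granule cells ranked by their Camp, Ltf and Ngp share (x axis, lowest to highest), for DMSO and Selinexor. Bars are exact 95% Poisson intervals, which cover counting error only; Lcn2 was higher in the highest than in the lowest group of both libraries, and Retnlg stood at 51.5 CPM in DMSO and 349 CPM in Selinexor in the highest group.

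Levels also differed between cells with and without cycle transcripts. Lcn2 stood at 8488 CPM in DMSO cells with a UMI of Mki67 or Top2a and at 13712 CPM in those without one, and at 8270 and 10887 CPM with Selinexor. Mmp8 stood at 227 and 1258 CPM in DMSO and at 565 and 2236 CPM in Selinexor. Cebpe went the other way, with 560 and 313 CPM in DMSO and 393 and 232 CPM in Selinexor.

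Across single cells thinned to 2000 UMIs, the granule genes were partly coupled. Spearman's rho between Ltf and Lcn2 was 0.56 over 286 DMSO cells and 0.41 over 273 Selinexor cells, between Ltf and Ngp 0.34 and 0.64, and between Camp and Ngp 0.24 and 0.47. Camp and Chil3 gave -0.04 and 0.05, and S100a8 and S100a9 0.53 and 0.85. Lcn2 and the summed G2M list gave -0.37 and -0.14. The cells of a pair share a library and, for the rule genes, the selection, so these values are descriptions.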

How the data were processed

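Gene counts (UMIs) and sample-tag counts of 2 libraries, 1 DMSO and 1 Selinexor, were used as the authors deposited them, for 32285 genes. Cell Ranger 6.1.2 and mm10 are named in the submitters' processing notes, and how doublets were treated is not given in the sources used here. No doublet caller was run, and sample-tag shares are given instead. The cell rule, gene lists and thresholds were chosen with earlier results of these data known. UMIs were summed over the cells of a class and scaled to CPM, and log2 ratios used CPM + 1. Genes with at least 50 UMIs over both sums were measured, and ratios of at least 1.5-fold were counted. Intervals are 95% exact Poisson, Clopper-Pearson or conditional binomial intervals, and no p-value was computed. Named genes were genes of interest, the 12 highest and 12 lowest with Selinexor, the 12 highest and 8 lowest against other cells (both at 100 UMIs and 20 CPM or more, without mitochondrial, ribosomal protein, haemoglobin and provisional genes) and up to 5 genes per list, 153 in all, with the rule genes left out of the ranking against other cells. The ranking with Selinexor also required the same direction with cells weighted equally. Thinning drew 2000 UMIs per cell. The ratio code was tested on simulated data. Some genes of the lists are not reported here by name. Alternatives changed the cell limits, depth, UMI minimum, scaling and cells included. Gene positions came from GENCODE M21 and start-site windows from RefSeq (GRCm38.p6). Python 3.11.15, NumPy 2.4.6, SciPy 1.17.1, pandas 2.3.3, matplotlib 3.10.9 and, for TMM factors, edgeR 4.0.16 were used.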

Additional observations from a re-analysis of the deposited data

Results flagged for a closer look

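Stfa2l1, Ifi27l2a and Arg2 had ratios past 1.5-fold in opposite directions in specific granule cells and in other cells, and the difference was not tested. Other cells are a mixture whose make-up differed between the libraries, so make-up and level cannot be told apart in their ratios. Stfa2l1 had a log2 ratio of Selinexor over DMSO of 0.81 in specific granule cells and -2.52 in other cells. Ifi27l2a, an interferon-induced gene, had 1.30 and -1.08, and Arg2, which encodes the mitochondrial arginase, had 0.61 and -0.62. The Arg2 ratio in specific granule cells stayed past 1.5-fold in 10 of 16 alternatives, and its lowest value was 0.31. Cells under 2000 UMIs were used in no comparison. Among them, 8 of 783 Selinexor cells (1.02%) had at least 1% of UMIs from Camp, Ltf and Ngp. In the DMSO library 2 of 314 such cells did (0.637%). These counts are small, and the part of free RNA in them was not tested.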

How the results depend on the processing

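No paired analysis was possible because each group was a single library, and no replicate could be left out for the same reason. The share of specific granule cells was 14.3% (DMSO) and 17.8% (Selinexor) with a 2% limit, 23.9% and 26.9% with a 0.5% limit, and 16.4% and 13.9% of all cells that passed the filters. Cells with Mki67 or Top2a were 47.2% and 42.5% after thinning and 45.8% and 40.3% when 2 or more UMIs were required, and 62.0% of Selinexor cells with at least 4000 UMIs. Against 396 genes higher and 562 lower with Selinexor, thinning gave 247 and 243, a minimum of 20 UMIs 707 and 987, and a minimum of 200 UMIs 106 and 139, since the minimum sets how many genes are compared. Without cells with Mki67 or Top2a, 225 were lower and 322 higher. Against other cells, thinning gave 443 higher and 2250 lower in DMSO and 422 and 2466 with Selinexor, TMM scaling 1409 and 2214, and 1602 and 2755, median-of-ratios scaling 1491 and 2137, and 1684 and 2648, and a minimum of 200 UMIs 421 and 2380, and 416 and 3047. Ratios turned sign with the 2% limit for H2-Aa (0.0086), H2-Ab1 (0.39) and Mmp12 (-0.19), with the 0.5% limit for Lpl (0.24), and without cells with Mki67 or Top2a for H2-Aa (0.40), Cd74 (0.30), H2-Ab1 (0.20), Prtn3 (0.056), Nusap1 (0.13), Ran (0.34) and Nop58 (1.497), and the cause was not tested. The ribosome biogenesis median was 0.42 in that last setting. Of the 24 highest and lowest genes with Selinexor, 20 stayed past 1.5-fold in the same direction under all 16 alternatives, and the exceptions were the MHC class II genes Cd74, H2-Aa, H2-Ab1 and H2-Eb1. Leaving out cells with 10% or more of the other library's tag was chosen after seeing the data, and gave 371 higher and 505 lower. The shares of specific granule cells were then 18.5% (DMSO) and 21.2% (Selinexor), and the monocyte list median went from 0.26 to -0.065. The ratio of Ran was then -0.57, inside 1.5-fold, as were those of Dtl, Mpo, Mybbp1a, Nop58 and Plk3. The single library per group limits every comparison.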

Other observations

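Of 7 measured genes on the macrophage list, 3 were higher with Selinexor in specific granule cells and 1 was lower, against 6.96% and 9.87% of all genes. The higher ones were Ctsd, Cd63 and Gpnmb, the protease gene Ctsb had a ratio of 0.37, and the lower gene was Lpl at -0.84, which stood at 0.24 with a 0.5% limit on the rule genes. Ctsd, which encodes the protease cathepsin D, counted 922 UMIs in DMSO and 1757 in Selinexor, a log2 ratio of 1.16 (1.05 to 1.28), with 1.31 in other cells. Cd63, a tetraspanin of granule and lysosome membranes, counted 647 and 912 UMIs (0.73, 0.58 to 0.88), and Gpnmb 21 and 59 (1.62, 0.98 to 2.52). C1qb and C1qc were at 0 in the Selinexor cells. The sum of the 7 macrophage markers was 26.6 CPM in DMSO and 36.5 CPM in Selinexor specific granule cells. Psap, the prosaposin gene, was the 1 higher gene of 6 measured on the monocyte list, with 735 and 1078 UMIs (0.78, 0.65 to 0.92).

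Several lists of regulators and receptors had shares past the limit that can be read against the same 6.96% and 9.87% of all genes. Of 13 measured transcription factor genes, Zeb2 was higher (144 and 238 UMIs, 0.95, 0.65 to 1.27) and Cebpa lower (44 and 21 UMIs, -0.78, -1.66 to -0.05, and -0.54 in thinned cells). Of 19 genes of cytokine receptors and JAK-STAT signalling, 1 was higher and 3 were lower, with Pim1, a STAT target kinase gene, at 0.64 (0.49 to 0.81) and the IL-4 receptor gene Il4ra at -1.03 (-1.63 to -0.52). Of 14 BCL2 family and apoptosis genes, 0 passed the limit. Of 12 p53 target genes, 0 were higher and 2 lower, and of 13 ribosome biogenesis genes, 0 were higher and 3 lower. The stem cell factor receptor gene Kit counted 21 and 56 UMIs (1.55, 0.90 to 2.45), with 0.18 in other cells.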
